A study of Arabidopsis thaliana with 18 samples.

Results

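In Arabidopsis petioles, 131 of 22746 probe sets had higher levels when red light was low relative to far-red (low R:FR) and lower levels when blue light was low. They were chosen by their group means on a log2 scale. The mean in low R:FR lay at least 0.4 above that in control light, the mean in low blue lay at least 0.4 below it, and all 3 low R:FR arrays lay above all 3 low blue arrays. Symbols that start with CYP, UGT or GST and a fixed set of other genes were left out by name. A further 7 probe sets met these values and were left out in this way, among them HYH, COR15A, TBL26, CHIL and UGT78D2. Of the 131, 51 carried 1 gene each, 1 was shared by several genes, and 79 were not listed in the annotation table and stay unnamed here. The 79 could not be screened by name, so they may include genes of the kinds left out. Only IAGLU and LrgB had a gene symbol, and the other 49 genes are given by their locus. IAGLU and AT2G16890 encode glycosyltransferases and stayed in, since neither carried a UGT symbol.

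Plants shaded by neighbours receive light that is poor in red and in blue. Phytochromes sense the drop in red relative to far-red, and cryptochromes and phototropins sense the loss of blue. Either cue can make petioles elongate, and shade avoidance is the name for this response. In these probe sets the 2 cues had opposite effects by the choice of members, so what the same genes did when both cues came together, or in a real stand of plants, was not set by that choice.

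The arrays were Affymetrix ATH1 arrays of petioles of accession Col-0, 18 in 6 groups of 3. The light groups were low R:FR, low blue, low blue with low R:FR (called combined) and control light, each given for 24 h to single plants harvested at an age of 29 d. The density groups were a canopy of 2066 plants per m2 and single plants, both 37 d old and under control light, with 2 young petioles per plant and 4 plants pooled per replicate. All plants had grown under 9 h of light and 15 h of dark until an age of 28 d. The labels do not say whether the light replicates were separate pools of plants, and the p-values for them then cover only differences among samples that may be technical. The petiole tissue could not be checked by marker genes, few of which carried a named probe set. The leaf mesophyll gene RCA was bright on all arrays, at 10.83 to 11.21, but it cannot tell petiole from leaf blade.

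Array medians over all probe sets lay between 1.59 and 1.66, and for 46.8% of probe sets the mean was under 1.5, near the floor of the arrays. The members lay further above that floor, with means over the 18 arrays from 1.72 to 7.53 and a median of 4.69, against a median of 1.64 over all probe sets. Only 2 of them had a mean below 2.

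The members' median difference from their own mean in control light was 0.7, 0.71 and 0.71 on the 3 low R:FR arrays and -0.74, -0.65 and -0.67 on the 3 low blue arrays. These values chose the members and are a description. Per member, the low R:FR change ran up to 2.48 with a median of 0.64, and the low blue change down to -2.19 with a median of -0.6. Over all probe sets, limma called 0.62% higher in low R:FR and 0.325% lower in low blue (adjusted p under 0.05, the call used throughout).

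The control light arrays were not alike in these genes. Replicate 1 lay above replicate 3 in 112 of the 131 members, by a median of 0.46, against a median difference of -0.01 over all probe sets. Control light replicates 1 and 3 were also the pair with the lowest correlation within a group (0.9781). In 65 members all 3 control arrays lay between the low R:FR and the low blue arrays, an order that the choice of members favours.

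**Figure D1:**
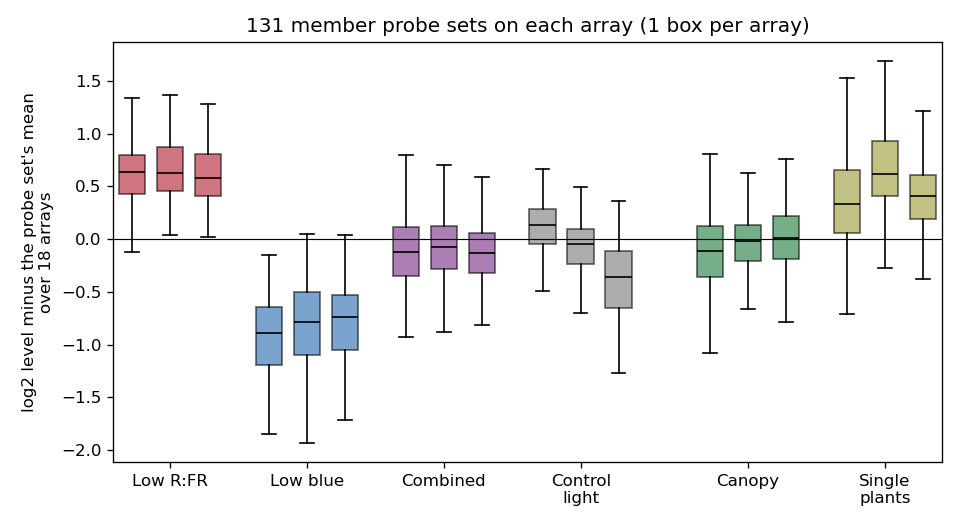
Level of the 131 members on each of the 18 arrays, as the log2 level minus the probe set's own mean over all arrays. Each box is 1 array, with the median, the quartiles and whiskers to 1.5 times the interquartile range, and the lower boxes in low blue and upper boxes in low R:FR follow from the choice of members. The combined arrays lie near control light, the third control light array lies below the other two, and the 3 canopy arrays lie below the 3 single plant arrays.

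Near the low R:FR threshold, 257880_at (0.41) and AT2G37240 (0.41) lay just inside, and 254077_at and 266097_at (both 0.39) just outside. Near the low blue threshold, AT1G50020 (-0.403) and 257801_at (-0.405) lay just inside, and AT1G70000 (-0.399) and CYTC-2 (-0.394) just outside. The module has therefore no sharp edge, and 232 probe sets met the rule with thresholds of 0.3 in place of 0.4. With 1 light array left out, 104 to 158 probe sets met it, and 85 of the 131 members were still among them without control light replicate 3 and 90 without control light replicate 1.

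The widest gaps between the 2 cues were in the unnamed 245306_at (3.8), 252123_at (3.77) and 249774_at (3.45). The widest gap of a named member was that of AT3G56290 (3.37). It lay at 7.08, 7.17 and 6.98 in low R:FR and at 4.03, 3.79 and 3.31 in low blue. It lay at 6.27, 5.82 and 6.17 in combined light, against 5.68, 5.44 and 4.65 in control light. The low R:FR arrays were thus the highest, the low blue arrays the lowest, and the combined arrays all above control light.

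AT5G57785 lay at 5.45, 5.2 and 5.83 in low R:FR and at 3.29, 1.95 and 2.29 in low blue. Its combined arrays, at 4.68, 3.59 and 3.62, overlapped control light at 4.26, 4.2 and 3.13. AT2G27420, of the papain-like cysteine protease family, lay at 3.23, 3.77 and 4.18 in low R:FR and at 1.2, 0.94 and 1.19 in low blue. With both cues it stood close to low blue, at 1.87, 1.3 and 1.39 in combined light, against 2.94, 2.28 and 1.47 in control light. Its low blue values are near the floor of the arrays, so the size of that change is uncertain.

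AT3G57020, of the strictosidine synthase-like family, lay at 6.23, 6.44 and 6.48 in low R:FR and at 3.79, 4.74 and 4.02 in low blue. Its combined arrays stood at 5.72, 5.84 and 6.11, all above control light at 5.23, 5.07 and 5.12. AT3G28220, which encodes a TRAF-like protein, lay at 4.38, 3.88 and 3.52 in low R:FR and at 2.03, 1.72 and 1.58 in low blue. It lay at 3.05, 2.8 and 3.1 in combined light, against 3.07, 2.29 and 1.67 in control light, and these groups overlapped. AT1G65870, of the dirigent-like family that is named for steering the coupling of phenolic radicals, lay at 3.62, 3.83 and 3.56 in low R:FR and at 1.85, 1.54 and 1.6 in low blue. It lay at 2.19, 2.61 and 2.4 in combined light, against 2.62, 2.38 and 2.25 in control light, so these groups overlapped too.

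AT4G36530, of the alpha/beta hydrolase family, lay at 5.8, 6.15 and 6.03 in low R:FR, 3.95, 4.04 and 4.78 in low blue and 5.08, 5.5 and 5.34 in combined light, against 5.23, 5.08 and 5.05 in control light. AT2G36145 lay at 3.11, 3.67 and 4 in low R:FR, 1.89, 1.87 and 2.01 in low blue and 2.45, 3.14 and 2.42 in combined light, against 3.17, 3 and 2.74 in control light. In both genes the combined and control arrays overlapped. AT3G24190, of the ABC1-like kinase family, lay at 5.45, 5.52 and 5.37 in low R:FR, 3.39, 4.02 and 4.04 in low blue and 4.13, 4.57 and 4.63 in combined light, against 4.59, 4.67 and 5.01 in control light. Here too the combined and control arrays overlapped.

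Of the 51 named members, 4 belong to families that act on pectin in the cell wall. AT1G23205 and AT3G17130 encode proteins of the invertase and pectin methylesterase inhibitor family, and AT1G48100 and AT1G60590 encode polygalacturonase-like enzymes of the pectin lyase fold. AT1G23205 lay at 5.86, 6.67 and 6.31 in low R:FR, 3.98, 3.57 and 4.46 in low blue and 5.38, 5.99 and 5.04 in combined light, against 5.22, 4.96 and 3.22 in control light. AT1G60590 lay at 5.86, 6.11 and 6.12 in low R:FR, 4.62, 4.82 and 4.72 in low blue and 4.69, 5.05 and 4.73 in combined light, against 6.1, 5.6 and 4.45 in control light. Its combined arrays thus stood beside low blue, while those of AT1G23205 stood above all 3 low blue arrays. The control light values of AT1G48100 ran from 3.87 to 6.15, wider than its whole range in low R:FR, low blue and combined light, 4.37 to 6.31.

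AT2G16365 encodes a protein that binds phytochrome B and prolongs its active state. It lay at 3.61, 3.19 and 3.22 in low R:FR, 1.68, 2.24 and 2.03 in low blue and 2.67, 2.41 and 2.79 in combined light, against 3.12, 2.53 and 1.87 in control light. A group of 6 named members, picked from background knowledge, encode proteins known or thought to act in the chloroplast. No annotation of location was used, so other members may act there too. The 6 picked are LrgB, a glycolate and glycerate transporter of the envelope, AT3G48420, a sugar phosphatase, AT5G55220, a trigger factor type chaperone, AT3G24190, an ABC1-like kinase, AT1G49380, of c-type cytochrome assembly, and AT3G25410, of the bile acid and sodium symporter family. Pairs of related genes were AT2G36630 and AT1G61740, of the TauE/SafE transporter family, and AT3G14200 and AT5G43260, which encode DnaJ-type proteins. These groups were formed after the values were seen and carry no test.

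When both cues were given together, the members lay close to control light. Their median difference from the control light mean was -0.04, 0.05 and 0.01 on the 3 combined arrays, where the control light arrays themselves stood at 0.2, 0.05 and -0.24. None of the 131 was called against control light by limma, against 1.55% called higher and 0.712% lower over all probe sets. Over the 9795 probe sets with a mean of 2 or more, nearer the members in level, 3.04% were called higher and 1.53% lower. At either background few calls would fall on 131 probe sets. At an unadjusted p under 0.05, 15 were higher (11.5%, against 6.53% of all probe sets) and 11 lower (8.4%, against 6.08%). Without control light replicate 1, 5 were called higher, and without control light replicate 3, 4 were called lower and 1 higher. Without combined replicate 3, 2 were called higher and 1 lower. All 3 combined arrays lay above all 3 control arrays in 8 members (against 7.97% of all probe sets) and below them in 12 (against 7.52%). The change of a member had a 95% interval of 0.44 to either side at the median, and 106 of the 131 intervals lay within 1 log2 unit of no change. Changes smaller than a member's own interval may have been missed. The control light arrays also entered the choice of members.

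On a scale where low blue is 0 and low R:FR is 1, the combined arrays had a median position of 0.5 over the members, with quartiles at 0.38 and 0.61. Taken alone, the 3 combined arrays gave medians of 0.48, 0.53 and 0.49, and control light also stood at 0.5. Combined light was nearer low blue in 64 members and nearer low R:FR in 67. In 93 members all combined arrays lay above all low blue arrays, and in 109 all lay below all low R:FR arrays. Both end points were fixed by the choice of members, so these positions are a description.

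The combined change was also set beside the sum of the 2 single changes, which all use the same control arrays. The median of combined change minus sum was -0.004 (quartiles -0.2 and 0.13), with 65 members above the sum and 66 below, and 86 within 0.25 of it. The thresholds for the 2 cues were equal in size, and the median sum was itself 0.007. A member near control light in combined light therefore tends to lie near its sum. No share over all probe sets is set beside the 86, and whether the effects of the cues add up was not tested. AT2G27420 lay farthest below among the named members, 1.09 under its sum. Farthest above among the named members were AT1G76240, by 0.85, and IAGLU, by 0.79.

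**Figure D2:**
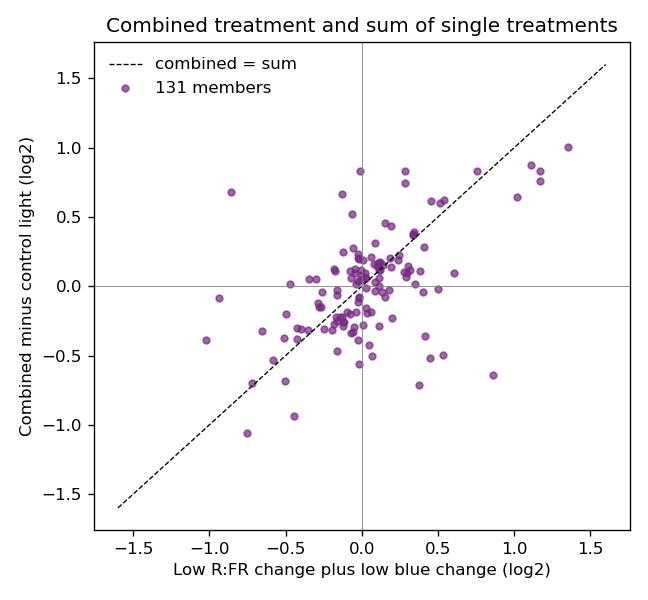
Combined minus control light for each of the 131 members (vertical axis, log2) against the sum of its low R:FR and low blue changes (horizontal axis, log2). The dashed line marks equal values, and 86 members lie within 0.25 of it. The 3 changes share the control light arrays, and the median sum is 0.007.

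IAGLU, which encodes a glucosyltransferase that conjugates the auxin indole-3-acetic acid, lay at 2.69, 2.97 and 3.28 in low R:FR, 2.15, 2 and 1.62 in low blue and 3.28, 3.37 and 2.89 in combined light, against 3.11, 2.11 and 2.33 in control light. With both cues its mean lay above low R:FR, at position 1.19, and AT1G76240 did the same at 1.18. In AT1G76240 the combined arrays were at 5.43, 5.78 and 5.82, all above control light at 4.58, 4.78 and 5.17. The change was 0.83 ± 0.21 (limma adjusted p = 0.0528, the smallest among the members). The unnamed 264271_at stood at 0.83 ± 0.22 (adjusted p = 0.0588) and AT3G57020 at 0.75 ± 0.2 (adjusted p = 0.0598). AT1G76240 and AT3G57020 crossed the threshold in several alternative fits, AT1G76240 down to an adjusted p of 0.0266 and AT3G57020 down to 0.0296, each with array weights.

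In the canopy most members had lower levels than in single plants, the direction they have in low blue. The density arrays took no part in the choice of members. The median difference from the single plant mean was -0.54, -0.5 and -0.45 on the 3 canopy arrays, against -0.11, 0.19 and -0.08 on the single plant arrays. Of the 131 members, 117 had a lower mean in the canopy, and 44 were called lower (33.6%), against 2.15% called lower over all probe sets. Only 2 were called higher (1.53%, against 2.11%). Without canopy replicate 2, 29 were called lower, and without single replicate 1 or canopy replicate 3, 1 was called higher, AT1G76240. In 70 members all 3 canopy arrays lay below all 3 single plant arrays (53.4%, against 9.98% of all probe sets), and in 4 they lay above (3.05%, against 9.3%). The median change was -0.47 over the members and -0.01 over the 9795 probe sets with a mean of 2 or more, of which 4.06% were called lower. In whole petioles, fewer cells of a type and less RNA per cell cannot be told apart.

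**Figure D3:**
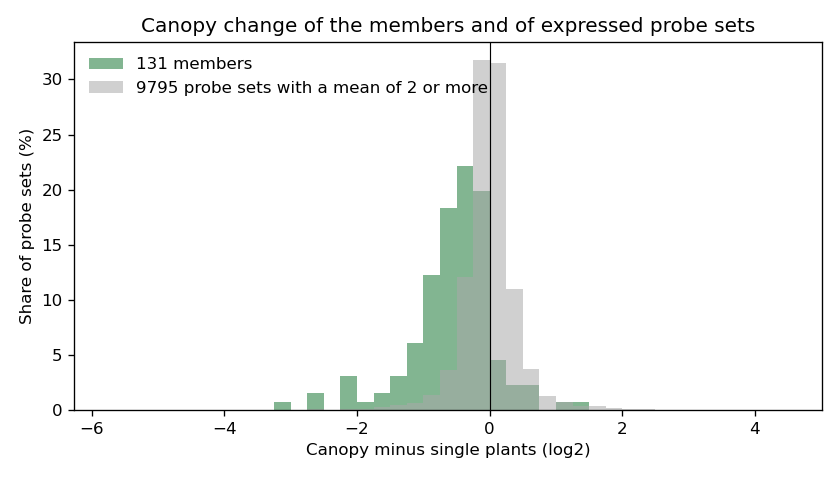
Distribution of the change in the canopy (canopy minus single plants, log2, in steps of 0.25) as a share of the 131 members and of the 9795 probe sets with a mean over the 18 arrays of 2 or more. The members are shifted to the left, with a median of -0.47 against -0.01.

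The strongest changes were in unnamed probe sets. 250207_at had levels of 3.89, 3.27 and 3.12 in the canopy, against 6.13, 6.89 and 6.37 in single plants, an 8.21-fold lower level (log2 change -3.04 ± 0.4, limma adjusted p = 0.000245). 251827_at had 2.58, 2.69 and 2.43 in the canopy, against 4.29, 5.66 and 5.33 in single plants (-2.53 ± 0.4, adjusted p = 0.00114). In both, the canopy arrays were far below every single plant array, and 22 members in all had a change of -1 or lower.

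Of the 51 named members, 8 were called lower in the canopy (15.7%, against 2.15% of all probe sets) and 1 higher (1.96%, against 2.11%). Of the 79 unnamed members, 35 were called lower (44.3%) and 1 higher (1.27%); the difference between named and unnamed members was not tested. AT5G14700, of the cinnamoyl-CoA reductase-like family, had levels of 3.12, 3.02 and 3.16 in the canopy, against 4.75, 3.83 and 4.38 in single plants (log2 change -1.22 ± 0.2, 2.32-fold, limma adjusted p = 0.0014). AT5G62140 had 2.34, 3.05 and 3.03 in the canopy, against 3.59, 4.08 and 3.94 in single plants (-1.07 ± 0.21, adjusted p = 0.00542). AT2G37240, of the thioredoxin superfamily, had 4.43, 3.94 and 4.67 in the canopy, against 5.4, 5.21 and 5.15 in single plants (-0.9 ± 0.16, adjusted p = 0.0028). These 3 genes were lower in every canopy array than in any single plant array, and they kept the call whichever density array was left out.

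AT3G24190, the ABC1-like kinase gene, had levels of 4.33, 4.77 and 4.89 in the canopy, against 5.35, 5.83 and 5.35 in single plants (-0.85 ± 0.2, limma adjusted p = 0.0186). The DnaJ-type gene AT3G14200 had 3.68, 3.4 and 3.46 in the canopy, against 4.63, 4.4 and 3.95 in single plants (-0.81 ± 0.19, adjusted p = 0.0174). AT2G16890, of the UDP-glycosyltransferase superfamily, had 2.44, 2.22 and 2.23 in the canopy, against 3.31, 2.76 and 2.98 in single plants (-0.72 ± 0.16, adjusted p = 0.0158). Here too the groups did not overlap. With 1 density array left out, AT3G24190 lost the call in 2 of 6 cases (highest adjusted p = 0.103), AT3G14200 in 4 (0.0922) and AT2G16890 in 4 (0.0847).

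AT1G48650, of the DEAH-box RNA helicase family, had levels of 3.21, 3.91 and 3.96 in the canopy, against 4.08, 4.82 and 4.59 in single plants (-0.8 ± 0.22, limma adjusted p = 0.0451). LrgB had 6.25, 6.34 and 6.45 in the canopy, against 6.64, 6.94 and 6.97 in single plants (-0.5 ± 0.13, adjusted p = 0.0443). Both calls were near the threshold. AT1G48650 lost its call in 4 of 6 leave-outs (highest adjusted p = 0.218) and when only the density arrays were fitted (0.141). LrgB lost its call in 5 of 6 leave-outs (0.184), after quantile normalization (0.0744), with an intensity trend (0.056) and in the density arrays alone (0.0655).

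AT1G76240 went the other way. Its levels were 5.94, 5.69 and 5.72 in the canopy, against 4.77, 4.28 and 4.38 in single plants, a 2.48-fold higher level (1.31 ± 0.21, limma adjusted p = 0.00147), and the call held in all 6 leave-outs. The other member called higher was the unnamed 255723_at, with 3.26, 2.98 and 3.59 in the canopy, against 1.99, 2.15 and 2.32 in single plants (1.12 ± 0.25, adjusted p = 0.0136). Both also had all 3 combined arrays above control light. IAGLU had 3.62, 3.59 and 3.24 in the canopy, against 2.72, 2.95 and 2.73 in single plants, which did not overlap but was not called (0.68 ± 0.22, adjusted p = 0.113).

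**Figure D4:**
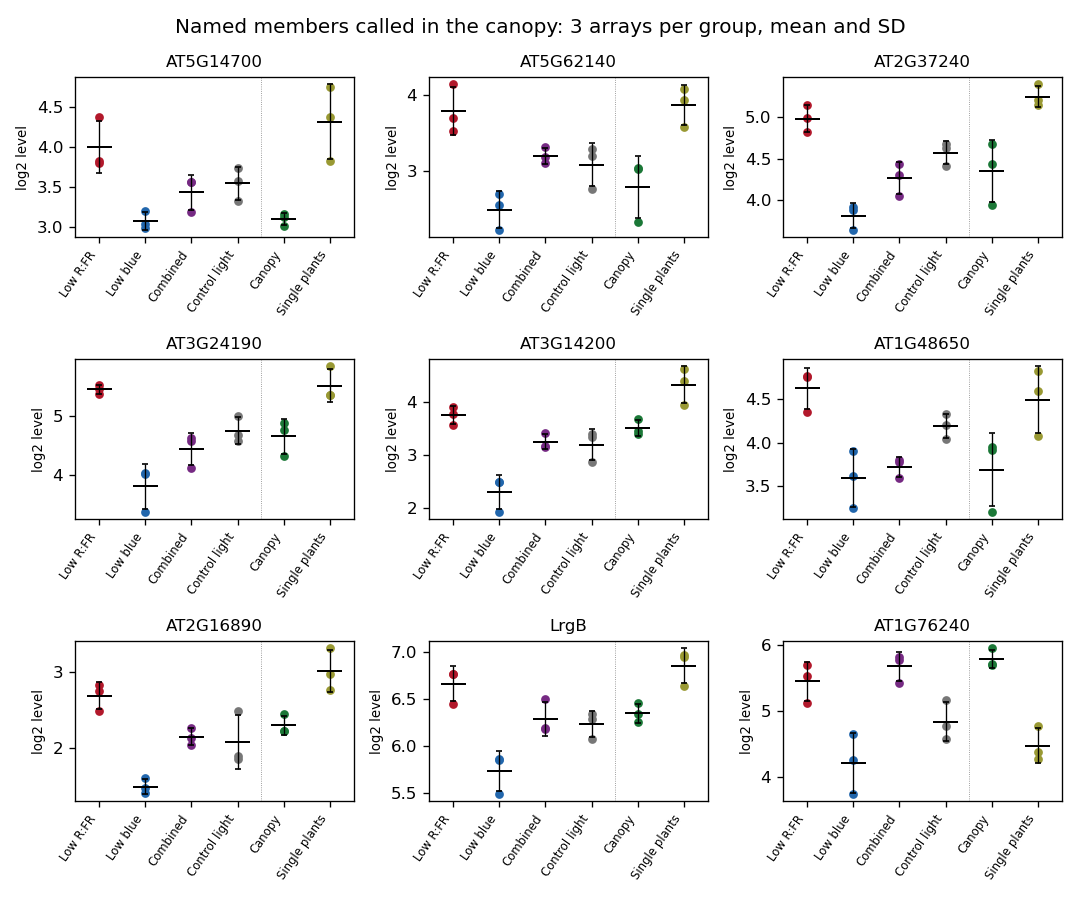
Log2 level of the 9 named members called in the canopy, with each array as a point and the mean and SD of the 3 arrays of a group as a bar with whiskers. Left of the dotted line are the light groups (29 d) and right of it the density groups (37 d). In 8 genes the canopy arrays lie below the single plant arrays, and in AT1G76240 they lie above.

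Of the 6 chloroplast genes picked above, a group formed after the values were seen, AT3G24190 and LrgB were called lower. The shares called lower were 15.7% of the named members and 2.15% of all probe sets. The canopy changes of the 6 ran from -0.85 to -0.34. Among the 4 pectin genes, 0 were called, with changes from -0.46 to -0.03 and overlapping arrays in each. AT2G36630 stood at -0.6 ± 0.21 and AT1G61740 at 0.14 ± 0.28, neither called. Of the 10 named members with the widest gap between the light cues, only AT3G24190 was called in the canopy. The 3 unnamed members with still wider gaps were all called lower, 245306_at at -2.14 ± 0.33 (limma adjusted p = 0.000877), 252123_at at -2.09 ± 0.24 (adjusted p = 9.22e-05) and 249774_at at -1.13 ± 0.23 (adjusted p = 0.00867). AT3G56290 had 6.11, 6.37 and 6.39 in the canopy, against 6.94, 7.11 and 6.4 in single plants (-0.53 ± 0.24, limma adjusted p = 0.32), and AT3G57020 had 5.55, 5.42 and 5.91 in the canopy, against 5.65, 5.91 and 5.47 in single plants (-0.05 ± 0.2, adjusted p = 0.961). AT5G57785 stood at 0.31 ± 0.46, AT2G27420 at -0.81 ± 0.34, AT1G23205 at -0.46 ± 0.42, AT3G28220 at 0.4 ± 0.36, AT1G65870 at -0.29 ± 0.17, AT4G36530 at -0.24 ± 0.19 and AT2G36145 at -0.64 ± 0.25. AT1G67360, which encodes a lipid droplet-associated protein, had a change as large as that of AT5G14700 (-1.22 ± 0.35) with an adjusted p of 0.0647, and was called lower with an intensity trend (0.0319) or without single replicate 2 (0.0183).

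Across the 131 members, the canopy change had a Pearson correlation of 0.46 with the low blue change (Spearman 0.42), of -0.27 with the low R:FR change (-0.2) and of 0.51 with the combined change (0.41). The canopy arrays are none of the light arrays, but all points share the same 18 arrays and the choice of members bounds the low R:FR and low blue changes, so these values describe the module.

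The canopy and combined changes were then compared directly. The canopy change was the lower in 111 of 131 members, by a median of 0.52 (-0.52 as canopy minus combined). It was called lower in 12 (9.16%, against 0.431% over all probe sets) and higher in 0 (against 0.369%; at an unadjusted p under 0.05, 54 were lower, or 41.2% against 5.46% of all probe sets, and 0 higher, against 4.88%). None of the 12 was a probe set of 1 named gene. The smallest adjusted p, 0.00167, belonged to the probe set shared by several genes, 253879_s_at. It had levels of 4.15, 4.43 and 4.47 in the canopy, against 5.62, 5.76 and 5.6 in single plants, and of 4.99, 5.33 and 5.11 in combined light, against 5.06, 5.01 and 5 in control light. The count of 12 fell to 4 without canopy replicate 2, control light replicate 2 or combined replicate 2, to 6 without canopy replicate 1 and to 7 without canopy replicate 3. It was 2 with control light replicates 1 and 3 left out together, a setting chosen after seeing the data.

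**Figure D5:**
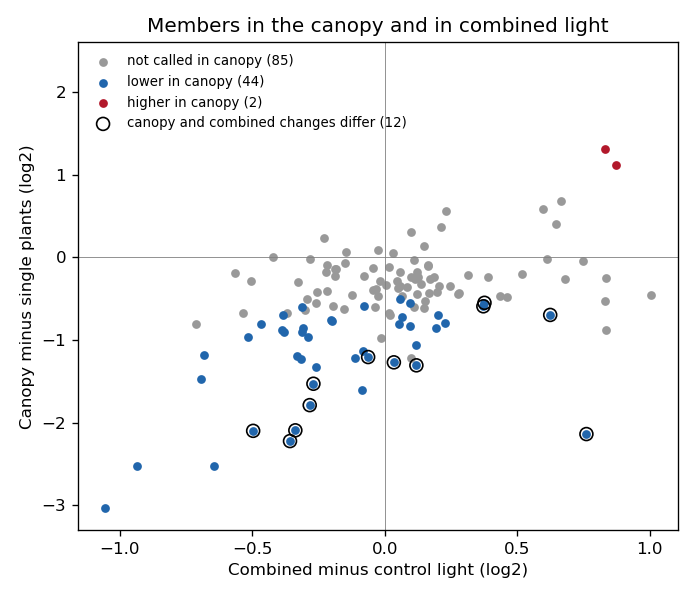
Change of each of the 131 members in the canopy (canopy minus single plants, vertical axis) against its change in combined light (combined minus control light, horizontal axis), both in log2. Colours give the call in the canopy, 44 lower and 2 higher, and circles mark the 12 members whose canopy and combined changes differed.

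Single plants of the density experiment had higher levels of these genes than the control light plants. Their mean was higher in 124 of 131 members, by a median of 0.57. Age, 37 d against 29 d, and experiment cannot be told apart in this difference.

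Markers of other cell types carried few named probe sets. The summed level of 4 of 13 guard cell genes was 3.43 to 3.7 on the canopy arrays, against 4.18 to 5.2 on single plant arrays, with CHX20 called lower (-2.1 ± 0.36, limma adjusted p = 0.00228). FMA (-0.24), SPCH (-0.03) and MUTE (-0.04) were not called, and SPCH and MUTE lay near the floor with means of 0.98 and 0.99. The leaf mesophyll gene RCA, 1 of 9 listed, stood at 10.86 to 10.98 in the canopy, against 11.06 to 11.21 in single plants (-0.19 ± 0.09, limma adjusted p = 0.351). The summed level of 2 of 8 phloem genes was 2.15 to 2.34 in the canopy, against 2.29 to 2.34 in single plants. Both, SWEET11 and OPS, lay near the floor with means of 1.29 and 1.37. For 2 of 11 epidermis markers the summed level was 8.35 to 8.71, against 7.72 to 8.26. Nearly all of it came from a bright probe set matched by the symbol FDH, with a change of 0.6. Whether this probe set measures the epidermis gene or another gene of that symbol was not checked. The dim TRY changed by -0.34, and neither was called. The summed level of 2 of 10 root genes was 3.24 to 3.91 in the canopy, against 1.85 to 3.07 in single plants, with PYK10 called higher (1.69 ± 0.45, limma adjusted p = 0.0412). The other, EXPA7, lay near the floor with a mean of 1.1 and a change of -0.04. No xylem or cell division marker had a named probe set. The part of these cell types in the canopy result was not tested.

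None of the 51 members with 1 gene belonged to the 20 pathway lists, of which 19 had at least 1 named probe set. This follows in part from the choice of members, since HYH, COR15A and CHIL met the values and were left out by name. They belong to the lists of blue light signalling, of cold and water deficit, and of flavonoid synthesis. Most listed genes had no named probe set. The 79 unnamed members could not be matched to any list. The phytochrome shade list had 20 names, not all of them different genes, and 2 matched a named probe set. These were the homeodomain gene HAT2 and the auxin repressor gene IAA29. Both rose in combined light, HAT2 by 1.26 ± 0.12 (limma adjusted p = 2.44e-05) and IAA29 by 2.19 ± 0.21 (2.01e-05). Of 25 names on the flavonoid synthesis list, some of them synonyms, 4 matched a named probe set. The match for CHI was by symbol only, and whether it is the chalcone isomerase gene was not checked. Of the 4, the chalcone isomerase-like gene CHIL was called lower in the canopy (-1.21 ± 0.31, limma adjusted p = 0.0347). CHIL is one of the 7 left out by name. In combined light, 0 of the 4 were called. The other genes left out by name had canopy changes from -2.06 for AT1G06000 to -0.15 for HYH.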

How the data were processed

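The values were log2 expression values of 22810 probe sets on 18 arrays, deposited by the authors. Per the submitters' processing notes they came from RMA. No source used here names the software or says which arrays RMA took together. The logarithm was taken as base 2 because control transcripts bioC, bioD and cre lay 1.5, 3.83 and 6.32 above bioB, nearer nominal steps of 1.74, 4.06 and 6.06 in log2 than 1.2, 2.81 and 4.2 in natural log. No 2 arrays were identical. After 64 control probe sets were set aside, 22746 were tested, of which 13513 had 1 gene in the platform table, 503 several and 8730 none listed.

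limma 3.58.1 (R 4.3.3) estimated a mean for each of the 6 groups in a single eBayes model of the 18 arrays, with no covariate. Two-sided p-values received a Benjamini-Hochberg adjustment over the 22746 probe sets of a comparison. The fit was tested on simulated data. The value after ± is limma's standard error. The number of arrays limits the precision.

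Members, gene lists and tests were chosen with earlier results of these data known. By rule, values per array were given for named members called in the canopy or in combined light and for the 10 named members with the largest low R:FR minus low blue difference. Other members named were chosen after their values were seen. Gene roles are background knowledge. Promoter motifs were not analysed here. Other normalizations, filters, weights, thresholds, blocks and leave-outs were tried.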

Additional observations from a re-analysis of the deposited data

How the results depend on the processing

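The lower median level of the module in the canopy kept its sign under the alternatives run. With 1 array left out, 29 to 37 members were called lower in the canopy and 1 to 3 higher, all probe sets called ran from 554 to 825, and the members' median change ran from -0.57 to -0.38. For combined light, where no member was called in the fit reported, leave-outs gave 0 to 5 higher and 0 to 4 lower, and 276 to 681 of all probe sets. For the difference between the canopy and combined changes they gave 4 to 17 members lower and 73 to 247 of all probe sets. The number of probe sets meeting the rule ran from 104 to 158 with 1 array left out and was 232 with thresholds of 0.3 and 72 with thresholds of 0.5.

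Members called higher in combined light numbered 1 after quantile normalization, 3 without probe sets of mean below 1.5, 4 without those whose highest group mean was below 2, 3 with an intensity trend, 3 with array weights (2 lower) and 1 when only the arrays compared were fitted (272 of all probe sets called). At an adjusted p under 0.1, 6 were higher and 2 lower, with 804 of all called. Members with a lower canopy than combined change numbered 19 under either filter on dim probe sets, 6 in the arrays compared alone (108 of all called) and 20 at an adjusted p under 0.1 (356), and array weights called 284 of all. Without control light replicates 1 and 3, chosen after seeing the data, 112 of all probe sets were called in combined light and 31 in the difference, with 2 members. The cause was not tested.

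Deviations of same-numbered replicates correlated at 0.169, 0.334 and 0.062 between canopy and single plants and at 0.283, 0.042 and 0.335 between combined and control light. Those of differently numbered replicates ran from -0.355 to 0.175 and from -0.38 to 0.094. The same-numbered values were thus all positive, while the others had both signs. The main fit did not take the numbers as pairs, and whether arrays of 1 number shared a batch was not tested. With the replicate number as a block, 47 members were lower and 2 higher in the canopy, 2 were higher and 1 lower in combined light, and 17 were lower in the difference. Counted over the settings tried for single named members, 1452 results kept both their sign and their call. In 77 the change switched sign with no call in either fit, 29 gained a call and 23 lost one. A switch of sign with a call occurred in 0. Promoter motifs were not run. The number of arrays and levels near the floor limit what can be seen in single genes.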
